A study of Chlorocebus sabaeus with 12 samples.

Results

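The genes described here are the 82 cytosolic ribosomal protein genes on a whole human genome array, out of 30982 gene names on it. Membership was set by name: a name made of RPL or RPS and a number, with or without a closing A, X or L and a further number, or RPLP0, RPLP1 or RPLP2. This set of genes was chosen with earlier results of these data known. The pattern leaves out ribosomal proteins with other names, such as RPSA and FAU. Of the 82 genes, 51 encode proteins of the large subunit and 31 proteins of the small subunit. Among them, 7 are named after a close relative: RPL3L, RPL7L1, RPL10L, RPL22L1, RPL26L1, RPL39L and RPS27L. All 82 were among the 20355 genes that passed the filter on dim probes and were tested.

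Ribosomes read mRNA on the small subunit and join amino acids on the large subunit, and the cytosolic ribosomal proteins are the protein parts of both. Their genes are among the most highly expressed in growing cells, and their mRNAs start with a run of pyrimidines, the TOP motif, through which mTOR signalling controls their translation. Cells usually keep these mRNAs in step with each other, and some of the genes, RPLP0 among them, serve as reference genes. FXR, encoded by NR1H4, is the nuclear receptor for bile acids. It is best known for genes of bile acid metabolism, not for genes of the ribosome.

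The series asked what phosphorylation of FXR does to gene expression. COS-1 cells, a kidney line of the African green monkey, transiently expressed FXR with a serine replaced by aspartate (S154D), whose charge resembles a phosphate, or by alanine (S154A), which cannot be phosphorylated. After 24 h of expression the cells received chenodeoxycholic acid (CDCA), a bile acid that activates FXR, given in the labels as 50 mM, or 0.1% DMSO, for a further 24 h. Total RNA was hybridised to 12 Agilent 1-colour arrays, 3 for each of the groups S154D_CDCA, S154D_DMSO, S154A_CDCA and S154A_DMSO. All groups therefore carry a transfected FXR mutant, and cells without it, or with wild-type FXR, were not analysed here. The labels do not say that replicates came from separate cultures, so the errors measure the spread between arrays, which may be technical. RNA was taken from whole cultures, in which fewer cells of a type and less RNA per cell cannot be told apart.

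The level of a gene is given here as the log2 signal of its brightest probe minus the 75th percentile of the array, so that 0 is the level of that percentile. A change is the difference between the mean levels of both groups in log2 units, fitted with limma, and is called where the p adjusted over all 20355 genes is under 0.05. The rule for these genes asks for a second scaling as well, quantile normalisation, which gives every array the same distribution of signals. The share of spots well above background lay between 61.6% and 79.8% on the different arrays. The file headers place the arrays on 4 slides, of which slide 3 held all 4 groups and slide 4 was scanned on another day. All 3 S154A_DMSO arrays lay at position 1 of their slide, so that position and group cannot be told apart there. Of the kidney epithelium markers on the array, 9 of 11 were well above background on all 12 arrays, including KRT8, KRT18, PAX8 and AQP1. PAX2 was well above background on 7 arrays and LRP2 on 2. All 12 arrays also had 5 of 7 fibroblast markers, 3 of 8 hepatocyte markers and 4 of 7 leukocyte markers well above background. Among these were VIM, the brightest marker of any list (level 7.16), FN1, ALB, SERPINA1 and LYZ. COL1A2, APOB and PTPRC were not well above background on any array.

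A deposited 60-base probe stands behind each value, and monkey RNA was measured with probes for human transcripts. Of the 82 gene names, 81 are also green monkey RefSeq symbols, all but RPL41. The probes of 4 genes on which the results turn are shown first, 5′ to 3′ as deposited, with G and C in capitals because changes in S154D cells followed the G and C content of probes across the whole array. Coordinates are those of the files, in the human build hg17. RPS12 has its only probe at chr6:133180332-133180391 on the plus strand. The used RPS2 probe spans chr16:1952862-1953160 on the minus strand, across an intron. The RPS6 probe lies at chr9:19366306-19366365 and the RPS14 probe at chr5:149806652-149806711, both on the minus strand.
RPS12: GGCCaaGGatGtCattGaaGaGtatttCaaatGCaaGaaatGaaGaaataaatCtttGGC
RPS2: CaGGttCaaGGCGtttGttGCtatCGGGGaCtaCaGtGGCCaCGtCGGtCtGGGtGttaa
RPS6: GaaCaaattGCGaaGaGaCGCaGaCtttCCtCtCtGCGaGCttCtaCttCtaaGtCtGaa
RPS14: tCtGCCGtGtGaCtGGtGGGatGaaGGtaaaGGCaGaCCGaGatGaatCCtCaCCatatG
The 82 used probes have 35% to 65% G and C with a median of 45%, and those of RPS12, RPL7, RPLP1 and RPLP2 share the lowest value of 35%. The used RPS2 probe has 55%, the RPS6 probe 45% and the RPS14 probe 51.7%. Over all tested genes the median was 45% as well.

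RPL21, a protein of the large subunit, shows how several probes of 1 gene behave, since 14 of its probes were kept. Its brightest probe, at chr13:26728613-26728672, is shown first, with G and C in capitals. The other 3 cover the same stretch, at chr13:26726361-26727379, chr13:26726366-26727385 and chr13:26726370-26727389, all on the plus strand, and differ in some bases. The run of 23 bases that these 3 share is in capitals.
RPL21 brightest: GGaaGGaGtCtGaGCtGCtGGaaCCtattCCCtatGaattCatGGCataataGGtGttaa
RPL21 stretch a: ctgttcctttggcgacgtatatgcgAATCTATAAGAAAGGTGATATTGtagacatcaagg
RPL21 stretch b: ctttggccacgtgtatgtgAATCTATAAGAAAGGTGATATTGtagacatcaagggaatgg
RPL21 stretch c: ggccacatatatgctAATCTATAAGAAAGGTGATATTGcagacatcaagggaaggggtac

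The genes named after a relative could share signal with it, since long shared runs let a transcript bind the other gene's probe. The longest run shared with any probe of the relative was 23 bases for RPL10L and for RPL26L1, 16 for RPL22L1, 11 for RPS27L, 7 for RPL7L1 and RPL3L, and 6 for RPL39L. Over the whole 60 bases, without gaps, RPS27L and its relative had up to 42 identical bases and RPL26L1 39. The pairs RPL10L with RPL10 and RPL26L1 with RPL26 are shown with the shared run in capitals. They lie at chr14:46190264-46190323 (minus strand), chrX:153149713-153149772 (plus), chr5:172319649-172328125 (plus) and chr17:8223905-8223964 (minus).
RPL10L: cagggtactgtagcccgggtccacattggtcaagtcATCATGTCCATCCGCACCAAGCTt
RPL10: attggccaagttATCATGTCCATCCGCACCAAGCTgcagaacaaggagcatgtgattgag
RPL26L1: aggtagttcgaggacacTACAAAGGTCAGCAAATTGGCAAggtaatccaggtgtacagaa
RPL26: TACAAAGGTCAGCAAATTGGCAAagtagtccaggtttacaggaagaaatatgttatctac
Signals of RPL10L, RPL26L1 and RPS27L are therefore uncertain as to which of the paired transcripts gave them.

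The ribosomal protein genes filled the bright end of every array. Probes named for them made up 39 to 43 of the 100 brightest non-control probes of an array and at least 142 of the 1000 brightest. Over the 12 arrays 81 of the 82 genes were well above background throughout, and RPL35, a protein near the exit of the nascent peptide, on 11, because its spot was marked as an outlier on array 3 of S154A_DMSO. The mean levels of 78 genes lay above 4. The other 4 lay under 1: RPS12 at 0.69, RPL39L at 0.37, RPL7L1 at 0.34 and RPL3L, known as a muscle form of RPL3, at -3.58. Signals reflect the match of a probe as well as the transcript, so these levels do not rank the transcripts. RPS2 was the brightest used probe on every array, with its spot saturated on array 1 of S154A_DMSO. Quantile normalisation therefore set RPS2 at 8.29 on all 12 arrays, and its change of 0 under that scaling is fixed by construction. RPLP0 was nearly fixed as well, at 8.11 on every array but array 3 of S154D_DMSO (7.99).

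On each array the 82 genes moved largely as a block. Their median level was 6.90, 6.69 and 6.86 on the S154D_CDCA arrays, 6.90, 7.08 and 6.71 on the S154D_DMSO arrays, 6.62, 6.91 and 6.74 on the S154A_CDCA arrays and 6.77, 6.89 and 6.66 on the S154A_DMSO arrays. The groups overlapped, with group means of 6.82 ± 0.11, 6.90 ± 0.19, 6.76 ± 0.15 and 6.77 ± 0.12 (SD, n = 3 each) in the same order. Arrays of a slide lay closer together: the 4 arrays of slide 3, which held each group once, gave 6.62 to 6.71, and the 2 arrays of slide 4 gave 6.91 and 7.08. The upper end of the signals varied with it, since the 99th percentile of signal lay 5.98 to 6.10 log2 units above the 75th on slide 3 and 6.19 to 6.36 above it on slide 4. Under quantile normalisation the medians ran only from 6.78 to 6.84. Because these genes fill much of the bright end, that scaling can itself remove a shift common to them. The narrow range therefore decides nothing about such a shift.

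**Figure D1:**
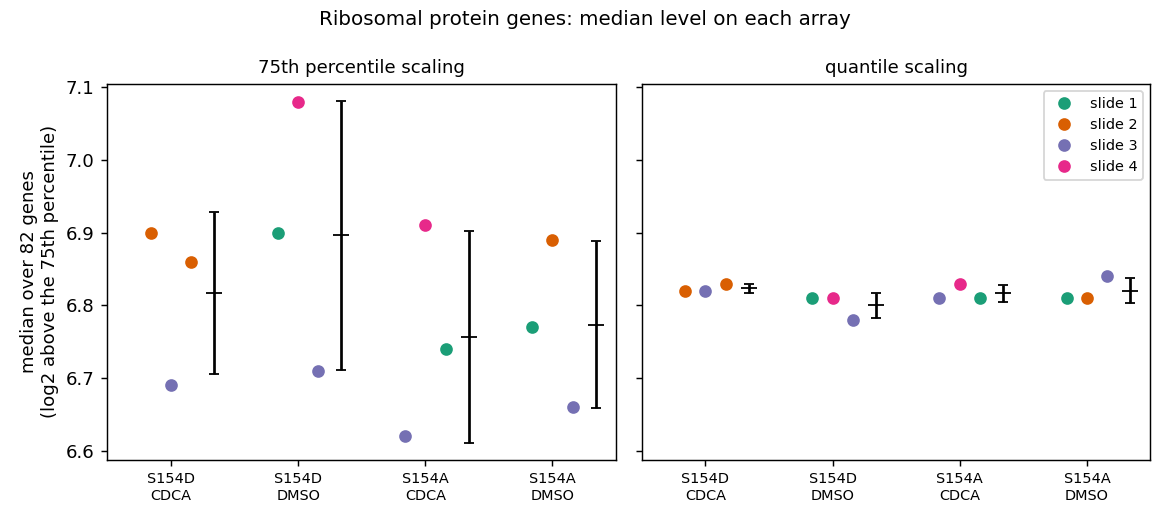
Each point is the median level of the 82 ribosomal protein genes on 1 array (y axis, log2 above the 75th percentile), coloured by slide, with the group mean and SD in black (n = 3). Under 75th percentile scaling (left) the points ran from 6.62 to 7.08 and followed the slide, and under quantile scaling (right) from 6.78 to 6.84.

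The same block is visible gene by gene. For pairs of these genes, the median Pearson correlation of their deviations from the group means across the 12 arrays was 0.77 under 75th percentile scaling, and 96.1% of the 3321 pairs were positive. Under quantile normalisation it was 0.08, with 57.1% of 3240 pairs positive. All of these pairs share the same arrays and their scaling, and quantile normalisation can itself remove a shift common to bright genes. The median SD within groups was 0.159 for the ribosomal protein genes against 0.21 for all tested genes. Under quantile normalisation it was 0.0788 against 0.204. RPL3L had the largest SD within groups under either scaling, 0.32 and 0.264.

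**Figure D2:**
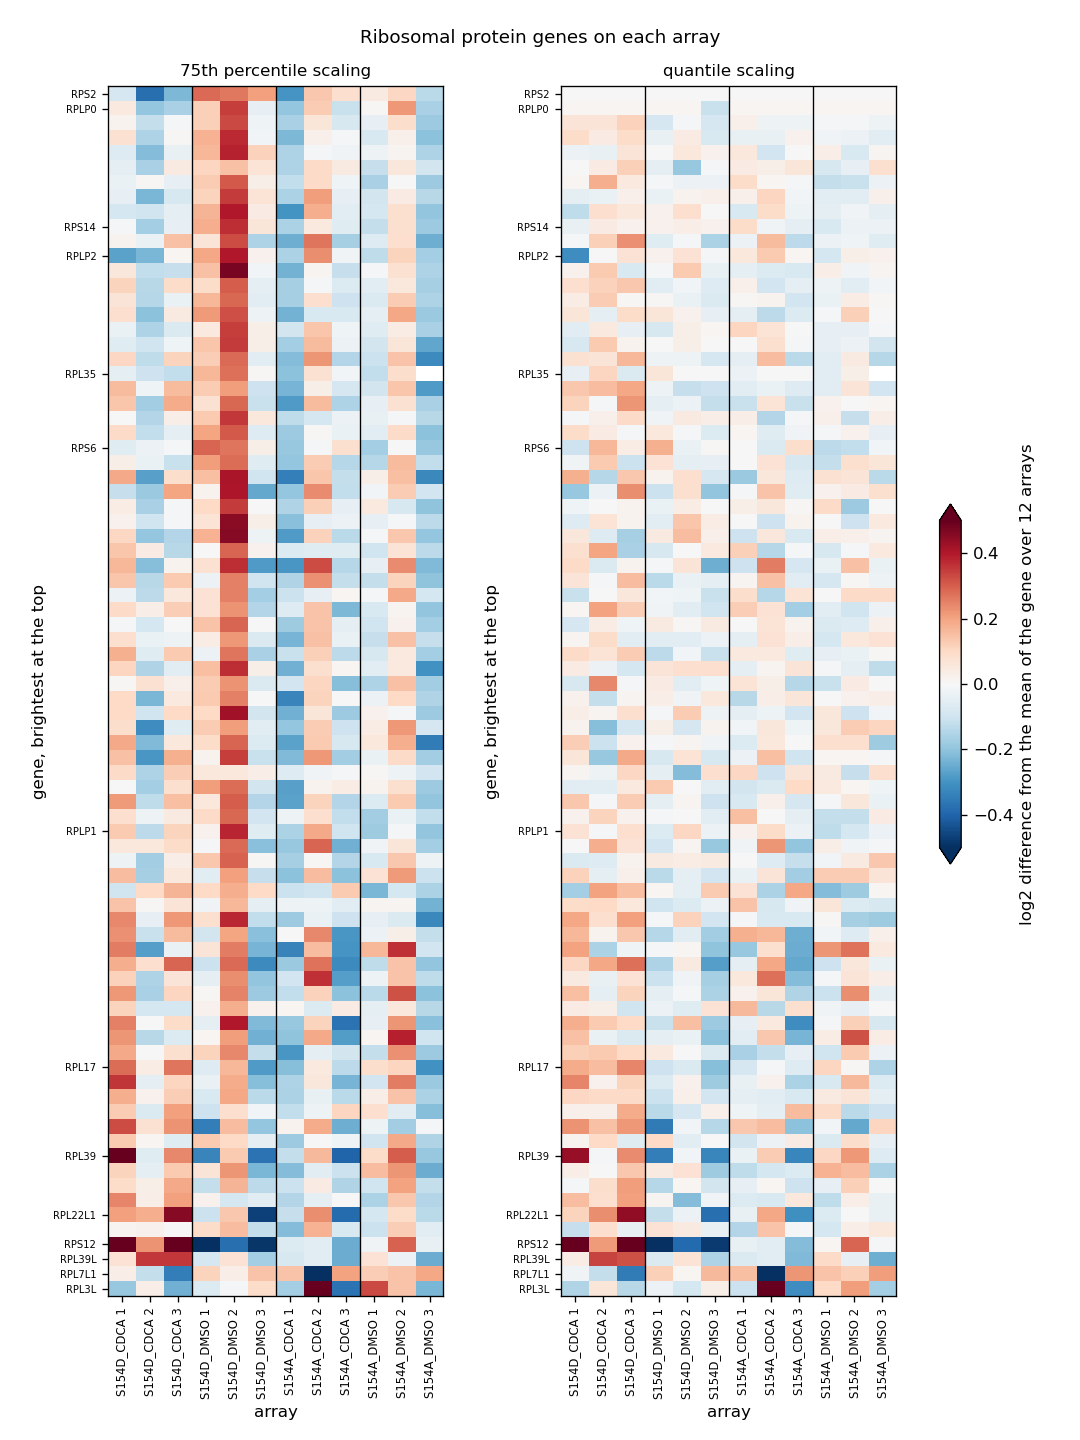
Each row is 1 of the 82 genes, ordered by mean level with the brightest at the top and some of them labelled, and each column 1 array, grouped from S154D_CDCA at the left to S154A_DMSO at the right. Colour gives the log2 difference from the mean of the gene over the 12 arrays (colours end at 0.5 either way, and the white cell of RPL35 has no value). Whole columns shift under 75th percentile scaling, while under quantile scaling RPS12 stands out among the dim genes at the foot.

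The first comparison asked what CDCA changed in S154A cells. By limma 0 of the 82 ribosomal protein genes were called, with 0.133% of all tested genes called. The unadjusted limma p was under 0.05 for 0 of the 82, against 1230 of all 20355 genes. Of the 82 changes 28 were positive, and they ran from -0.30 to 0.13 with a median of -0.02, against -0.04 over all tested genes. The median size of a change was 0.05, with a median standard error of 0.14. RPS12 alone had groups that did not overlap, a pattern seen for 11.9% of all genes: 0.62, 0.63 and 0.44 on the S154A_CDCA arrays, against 0.67, 0.98 and 0.65 on the S154A_DMSO arrays (log2 change -0.20, 95% interval -0.52 to 0.11, limma adjusted p = 0.906).

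Among the largest positive changes in S154A cells were those of RPL41, the shortest ribosomal protein (0.13), RPLP1, an acidic protein of the stalk that recruits elongation factors (0.11), RPL36A (0.09) and RPL12, at the base of the stalk (0.08). Among the largest negative ones were those of RPS16 (-0.30), RPL7L1 (-0.26), RPS12 (-0.20) and RPL39, which lines the exit tunnel (-0.19). Each of these 8 genes had an adjusted p of at least 0.904. Under quantile normalisation the changes had a median of 0.00 with 37 positive, and 0 genes were called, against 0.147% of all genes.

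The second comparison asked what CDCA changed in S154D cells, where 10.2% of all tested genes were called. Of the 82 ribosomal protein genes 2 were called, RPS12 higher and RPS2 lower. The unadjusted limma p was under 0.05 for 8 of the 82, against 6102 of all 20355 genes, a larger share. The calls over all genes, 2073 in number, came to 0 without array 3 of S154D_DMSO and to 1 without array 1 of S154D_DMSO or array 3 of S154D_CDCA. The changes ran from -0.48 to 0.96 with a median of -0.08, against -0.01 over all genes, and 28 were positive. The large subunit had 18 of 51 positive with a median of -0.09, and the small subunit 10 of 31 with a median of -0.07. The arrays of the groups did not overlap for 19 of the 82 genes, 4 with S154D_CDCA higher and 15 with it lower, against 33.7% of all genes. Under quantile normalisation 29 of the 82 genes were apart, 26 with S154D_CDCA higher and 3 with it lower, against 35% of all genes, so the direction of these counts turned with the scaling.

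RPS12 is a protein of the head of the small subunit, and in Drosophila it is known for its part in cell competition between cells of different ribosomal protein dose. Its level was 1.35, 0.91 and 1.30 on the S154D_CDCA arrays, against 0.18, 0.31 and 0.20 on the S154D_DMSO arrays. Every S154D_CDCA array lay above every S154D_DMSO array. The change was 0.96 ± 0.14 (SE), or 1.94-fold, with a 95% interval of 0.64 to 1.27 (limma adjusted p = 0.0271). It was the largest positive change among the used probes of the 82 genes, and RPL39 and RPL22L1 followed at 0.43. The call was lost without array 3 of S154D_CDCA (adjusted p = 0.111), array 1 of S154D_DMSO (0.0998) or array 3 of S154D_DMSO (0.108), while the change stayed between 0.87 and 1.10 when any array was left out. Arrays 1 and 3 of S154D_CDCA and array 2 of S154A_DMSO, the highest of their groups, lay on slide 2, whose part in the result was not tested beyond the values here. Without slide 2 the change was 0.68 (adjusted p = 0.153), within slide 3 it was 0.71, and with slide as a block 0.73 (adjusted p = 0.138).

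The G and C content of the probe moved with this result. Over all tested genes the Spearman correlation of the change in S154D cells with the G and C content of the probe was -0.56, and among the 82 genes -0.23. The used probes that share the 35% of RPS12 gave 0.34 for RPL7, -0.07 for RPLP1 and -0.37 for RPLP2. With the array-wise dependence on G and C removed, the RPS12 change was 0.60 ± 0.13 (adjusted p = 0.107), still the same sign. RPS12 has no other probe on the array against which its change could be set. Its level of 0.69 is low for these genes, and dim probes that did not stand for their gene also had large changes. Examples are 0.87 for a RPL26L1 probe (level -0.5) and 0.74 for a RPL24 probe (level -1.88). In the other direction a RPL22 probe gave -0.53 (level -1.97) and a RPS26 probe -1.25 ± 1.09 (level -5.82). Of the 32 kept probes at a level under 4, RPS12 included, 23 gave positive changes (median 0.32).

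RPS2 lies at the channel through which mRNA enters the small subunit. Its level was 8.20, 7.91 and 8.06 on the S154D_CDCA arrays, against 8.57, 8.55 and 8.49 on the S154D_DMSO arrays, without overlap. The change was -0.48 ± 0.13 (95% interval -0.78 to -0.18, limma adjusted p = 0.048), or 1.40-fold lower with CDCA. Other kept probes of RPS2 gave -0.39, -0.59 and -0.04, among others, the last from a probe on the opposite strand at a level of -5.19. The call sat close to the threshold. It held in 3 of the 12 fits that left out 1 array, those without array 1 or 2 of S154A_CDCA or array 1 of S154D_CDCA. Over the 12 the adjusted p ran from 0.0435 to 0.144 and the change from -0.55 to -0.41. Within slide 3 the change was -0.58. The call was lost with slide as a block (-0.49, adjusted p = 0.139). With the dependence on G and C removed it was -0.23 (adjusted p = 0.276). Over all genes the change fell with the G and C content of the probe (Spearman correlation -0.56). The probes that gave -0.39 and -0.59 have 70% and 75%, so for them sign and that dependence were not separated. A further kept RPS2 probe is not reported here, so this covers only part of the kept RPS2 probes. The probe that gave -0.39 lies on the minus strand at chr16:1954363-1954505, at a level of 5.65. It is shown with G and C in capitals.
RPS2 other probe: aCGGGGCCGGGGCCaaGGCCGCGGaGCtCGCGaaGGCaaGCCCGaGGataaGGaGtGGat
Under quantile normalisation, which fixes the brightest probe, this other probe gave -0.34.

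**Figure D3:**
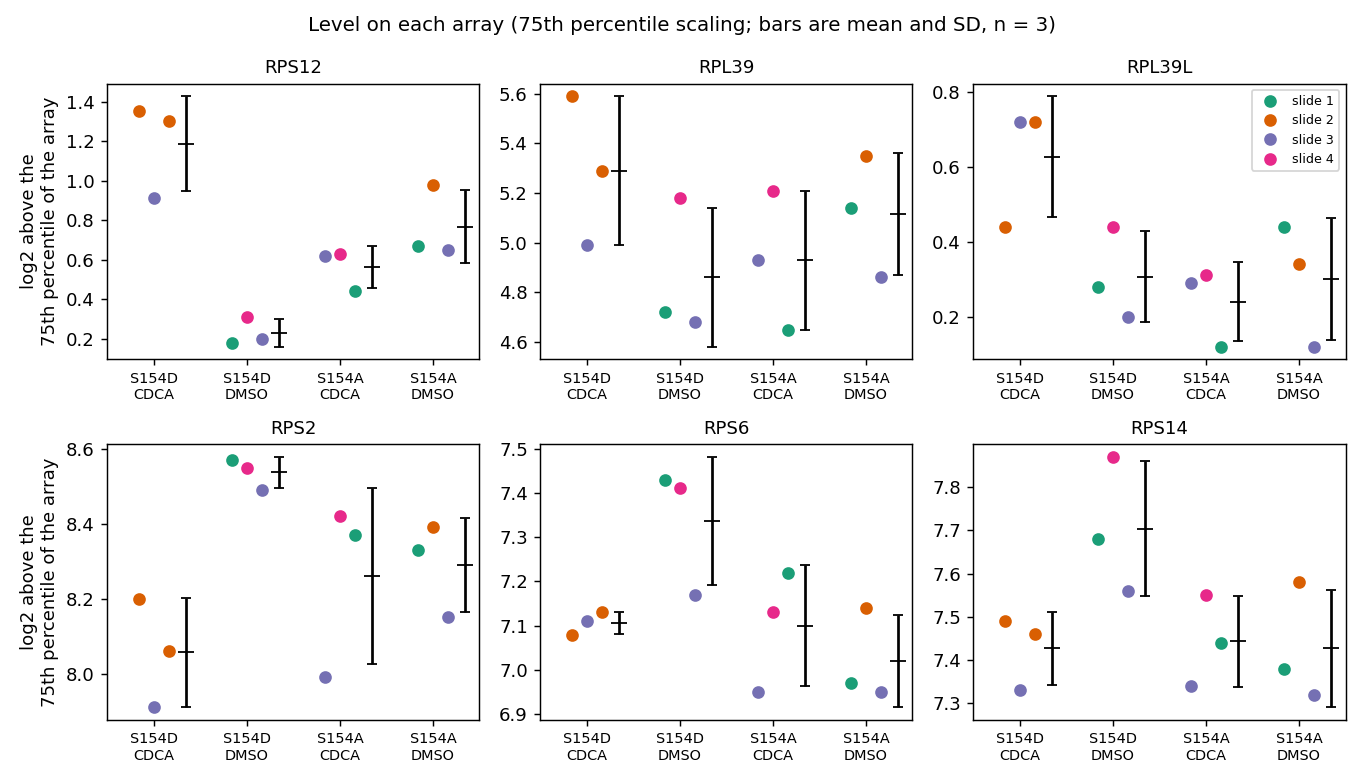
Points are the level on each of the 12 arrays (y axis, log2 above the 75th percentile) for RPS12, RPL39 and RPL39L (top) and RPS2, RPS6 and RPS14 (bottom), coloured by slide, with the group mean and SD in black (n = 3). RPS12 lay at 0.91 to 1.35 on S154D_CDCA arrays and at 0.18 to 0.31 on S154D_DMSO arrays, and RPS2 was highest in S154D_DMSO.

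RPL39 and its relative RPL39L, known as a testis form, both had positive changes with CDCA in S154D cells. RPL39 was at 5.59, 4.99 and 5.29 on the S154D_CDCA arrays, against 4.72, 5.18 and 4.68 on the S154D_DMSO arrays, which overlapped (0.43 ± 0.21, limma adjusted p = 0.206). A second RPL39 probe gave 0.58. RPL39L was at 0.44, 0.72 and 0.72, against 0.28, 0.44 and 0.20, in the same order, without overlap although array 1 of S154D_CDCA and array 2 of S154D_DMSO are equal at this rounding (0.32 ± 0.13, adjusted p = 0.117). RPL22L1, a relative of the RNA-binding protein RPL22, was at 5.07, 5.05 and 5.32 on the S154D_CDCA arrays, against 4.76, 5.00 and 4.40 on the S154D_DMSO arrays. Its groups did not overlap, and its change of 0.43 ± 0.19 was not called (adjusted p = 0.152). RPL7 (0.34, adjusted p = 0.171) completed the 5 largest positive changes, and RPL17 had 0.25 (adjusted p = 0.302).

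The genes with the most negative changes were bright ones. After RPS2 came RPLP2, another acidic protein of the stalk, at 7.12, 7.16 and 7.40 on the S154D_CDCA arrays, against 7.58, 7.79 and 7.41 on the S154D_DMSO arrays (-0.37 ± 0.14, limma adjusted p = 0.12). RPS20, which is ubiquitinated when ribosomes collide, followed at -0.33 (adjusted p = 0.0743), and RPL23, which can bind MDM2, was at -0.28 (adjusted p = 0.207). The other stalk proteins differed in size, with RPLP0, the scaffold of the stalk, at -0.24 and RPLP1 at -0.07, neither called. RPS14, whose loss marks a form of myelodysplastic syndrome, was at 7.49, 7.33 and 7.46, against 7.68, 7.87 and 7.56, apart but not called (-0.27, adjusted p = 0.143). RPS6, the small subunit protein phosphorylated by S6 kinases, was at 7.08, 7.11 and 7.13, against 7.43, 7.41 and 7.17, also apart and not called (-0.22, adjusted p = 0.206). RPL35 (-0.24), RPL12 (-0.24) and RPL26, which can bind p53 mRNA (-0.23), were apart and not called as well.

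Under quantile normalisation the sign of the median change turned over. The changes with CDCA in S154D cells had a median of 0.07 with 59 of 82 positive, in place of -0.08 with 28 positive. Called genes were RPS12 (0.92 ± 0.13, limma adjusted p = 0.0204) and RPL17, a protein near the exit tunnel (0.33 ± 0.09, adjusted p = 0.0444), with 12.2% of all genes called. RPL17 was at 6.05, 6.02 and 6.11 on the S154D_CDCA arrays under this scaling, against 5.76, 5.79 and 5.65 on the S154D_DMSO arrays. RPLP2, RPS20, RPL23, RPS14 and RPS6 were then between -0.11 and -0.01. RPS12 was the only gene of the 82 that was called under both scalings. RPS2, the other gene called under 75th percentile scaling, could not be called here, because quantile normalisation fixed its value.

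**Figure D4:**
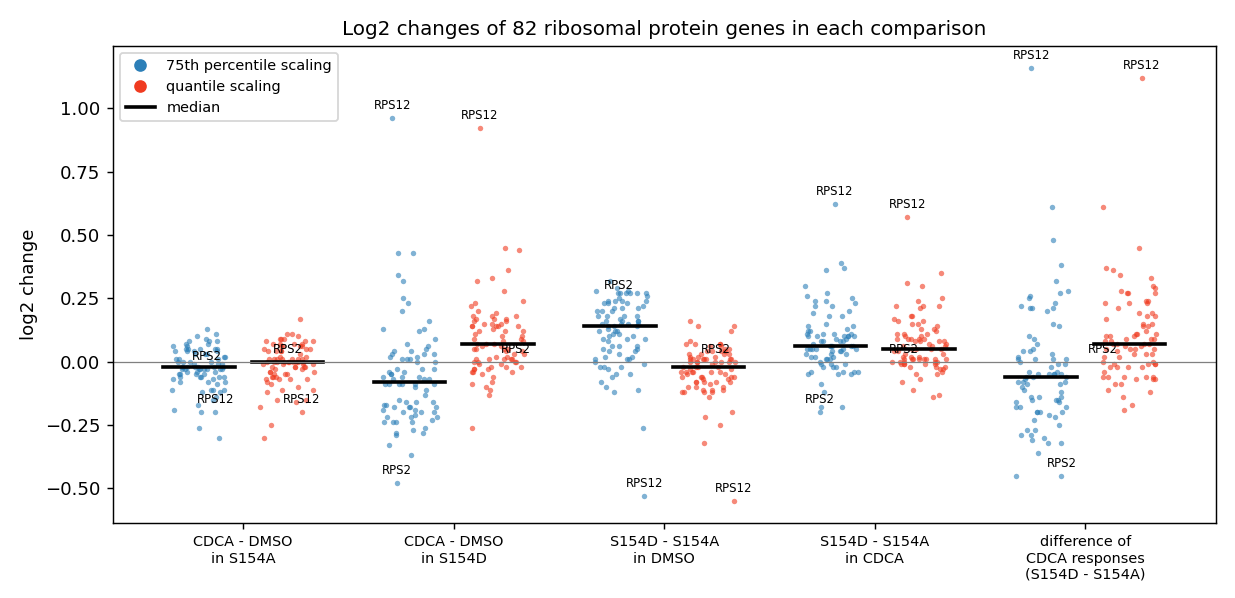
Each point is the log2 change (y axis) of 1 of the 82 genes in 1 of the 5 comparisons, the first group minus the second, under 75th percentile (blue) and quantile scaling (red), with black bars at the medians. In S154D cells the median change with CDCA was -0.08 in blue and 0.07 in red, while RPS12 lay at 0.96 and 0.92.

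Among the 82 genes, changes in S154D cells ran with the brightness of the probe. The Spearman correlation of the change with the mean level was -0.73 under 75th percentile scaling and -0.32 under quantile normalisation, and over all 20355 genes 0.08 and 0.00. Of the 31 genes with a level of 7 or above 1 had a positive change (median -0.20). Of the 35 genes between 6 and 7, 13 were positive (median -0.05), and of the 16 under 6, 12 were positive (median 0.15). These points share arrays and scaling, and brightness was not separated from the identity of the gene in them.

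Probes of the same gene repeated this order. Over all 194 kept probes of the 82 genes the Spearman correlation of change and level was -0.64, and -0.41 under quantile normalisation. The 14 RPL21 probes gave -0.91 and -0.87, with changes from -0.18 at the brightest probe (level 6.87) to 0.71 at a probe with a level of 3.63. The files place 9 of them on chromosome 13 and 5, the last one included, on chromosome 10. The 3 probes of the shared RPL21 stretch, at levels of 4.16, 3.60 and 3.41, gave similar changes of 0.57, 0.50 and 0.53. Their G and C content of 40% to 41.7% was close to the 43.3% of the brightest probe. The 6 probes of RPS3A, a small subunit protein, ran from -0.19 at the brightest to 0.60 at the dimmest, with a correlation of -1 (-0.83 under quantile normalisation). By contrast, the 5 kept RPS2 probes had -0.30, and 0.40 under quantile normalisation. The 6 probes of RPL34 had -0.60 and -0.03. In the 55 genes with more than 1 kept probe, 60 of the 112 other probes had the sign of the used probe, and their median change was 0.08. The rest had the opposite sign or involved a change that rounded to 0, as for the used probes of RPL31 and RPL9. Whether dim probes measured the same transcript was not tested.

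**Figure D5:**
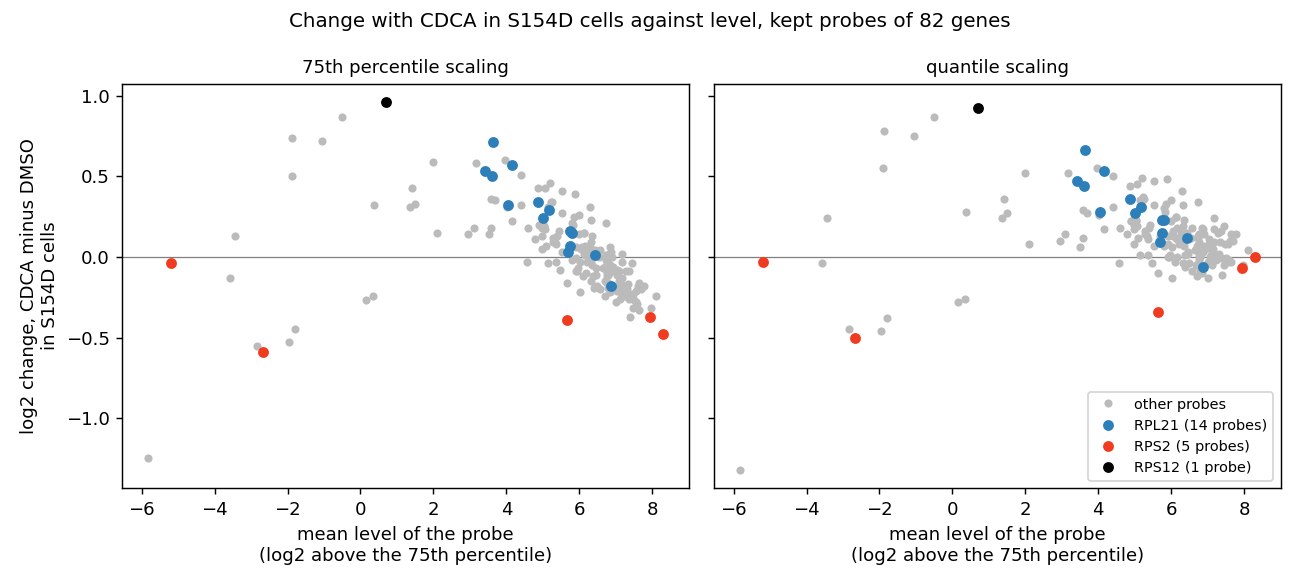
Each of 194 points is a kept probe of the 82 genes, with its mean level (x axis, log2 above the 75th percentile) and its log2 change with CDCA in S154D cells (y axis), under 75th percentile (left) and quantile scaling (right). The 14 RPL21 probes (blue) fall from 0.71 at a level of 3.63 to -0.18 at 6.87, and RPS12 (black) lies at 0.96.

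The third comparison set S154D against S154A cells in DMSO, where 0% of all genes were called under 75th percentile and 0% under quantile scaling. By limma 0 of the 82 ribosomal protein genes were called. The unadjusted p was under 0.05 for 7 of the 82, against 884 of all 20355 genes. Changes were positive for 67 of 82 genes, with a median of 0.14 against 0.00 over all genes. The small subunit had 27 of 31 positive and the large subunit 40 of 51. All 31 genes with a level of 7 or above were positive (median 0.21), against 31 of 35 between 6 and 7 (0.11) and 5 of 16 under 6 (-0.02). The Spearman correlation with level was 0.74, and 0.41 under quantile normalisation (over all genes 0.13 and -0.03). The arrays of the groups did not overlap for 11 of the 82 genes, against 11% of all genes.

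RPS6 had the largest positive change between the mutants in DMSO, at 7.43, 7.41 and 7.17 on the S154D_DMSO arrays, against 6.97, 7.14 and 6.95 on the S154A_DMSO arrays. The groups did not overlap, and the change was 0.32 ± 0.11 (limma adjusted p = 0.996). RPL41 (0.29), RPL10, which joins the large subunit late (0.28), RPS20 (0.28) and RPS14 (0.27) came next. RPS12 was the most negative, at 0.18, 0.31 and 0.20 on the S154D_DMSO arrays, against 0.67, 0.98 and 0.65 on the S154A_DMSO arrays, again without overlap (-0.53 ± 0.14, 95% interval -0.85 to -0.22, adjusted p = 0.996, unadjusted p = 0.00335). RPL39 (-0.26), RPS16 (-0.12) and RPL22L1 (-0.10) were also negative. Under quantile normalisation the median was -0.02 with 35 of 82 positive, while RPS12 had -0.55. That scaling can itself remove a shift common to bright genes, so its median cannot decide whether these genes shifted together. The S154D_DMSO arrays enter this comparison and the previous one, so both sets of changes share them.

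The fourth comparison set S154D against S154A cells in CDCA. Here 0 of 82 were called by limma, against 0.403% of all genes. The unadjusted p was under 0.05 for 2 of the 82, RPS12 and RPL39L, against 4802 of all 20355 genes. Changes were positive for 63 genes, with a median of 0.06, equal to the median of all genes. Under quantile normalisation 62 were positive with a median of 0.05, and 0 were called, against 0.953% of all genes. The groups did not overlap for 7 genes, among them RPL15, RPL39L, RPS12, RPS25, RPS27L and RPS28, all with S154D higher, against 28.6% of all genes. RPL15, RPS25 and RPS28 were named after their values were seen. RPS12 was at 1.35, 0.91 and 1.30 on the S154D_CDCA arrays, against 0.62, 0.63 and 0.44 on the S154A_CDCA arrays (0.62 ± 0.14, adjusted p = 0.0758). RPL39L was at 0.44, 0.72 and 0.72, against 0.29, 0.31 and 0.12, without overlap (0.39 ± 0.13, adjusted p = 0.123). The most negative changes were those of RPS2 (-0.20), RPLP2 (-0.18) and RPL3L (-0.18), none called.

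The last comparison tested whether the response to CDCA itself differed, S154D minus S154A. Under 75th percentile scaling 0 of 82 genes were called by limma, against 0.147% of all genes. Of the 82, RPS12 and RPS2 had an unadjusted p under 0.05, against 4560 of all 20355 genes. The RPS12 response differed by 1.16 ± 0.20 log2 units (95% interval 0.72 to 1.60, adjusted p = 0.0524), with CDCA changes of 0.96 in S154D cells and -0.20 in S154A cells. Under quantile normalisation the difference was 1.12 ± 0.18 and passed (adjusted p = 0.0429), where 0.58% of all genes were called. Within slide 3, which held each group once, it was 0.74. With slide as a block it was 0.84 (adjusted p = 0.297). The RPS2 difference was -0.45 ± 0.19 (adjusted p = 0.196).

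Over the 82 genes the difference between the responses was positive for 30, with a median of -0.06 against 0.04 over all genes, and for 58 with a median of 0.07 under quantile normalisation. After RPS12 came RPL39 (0.61, adjusted p = 0.256), RPL22L1 (0.48, adjusted p = 0.312), RPL39L (0.38, adjusted p = 0.238) and RPL17 (0.32, adjusted p = 0.412). At the other end were RPS2 and RPLP2 (-0.45 each), RPS20 (-0.32) and RPL12 (-0.32). The Spearman correlation with level was -0.77, and -0.41 under quantile normalisation (over all genes -0.03 and -0.01). Over the 32 kept probes at a level under 4 the median difference was 0.38. A dim RPL24 probe that did not stand for its gene gave 1.24, above the 1.16 of RPS12.

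For the 7 genes named after a relative the counts of signs depended on the scaling, and their difference from the other genes was not tested. With CDCA in S154D cells 4 of 7 were positive (median 0.05), against 24 of the other 75 (median -0.09). Under quantile normalisation they were 5 of 7 (0.08) against 54 of 75 (0.07). Between the mutants in DMSO 2 of 7 were positive, against 65 of 75, and under quantile normalisation 2 of 7 against 33 of 75. None of the 7 was called in any of the 5 comparisons, and they are dimmer than most of the other genes, so that brightness and kinship cannot be told apart. RPL10L, an autosomal copy of the X-linked RPL10, had -0.04 and RPL26L1 0.13 in S154D cells. RPS27L, a p53 target, had 0.05, RPL7L1 -0.24 and RPL3L -0.13.

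Other genes of protein synthesis were set beside the ribosomal protein genes. Of 21 tested translation factors and ribosome-associated proteins, many of which have TOP mRNAs as well, 7 had positive changes with CDCA in S154D cells (median -0.09) and 1 was called, against 10.2% of all genes. This was EEF2, the factor that moves the ribosome along the mRNA, at -0.69 ± 0.12 (limma adjusted p = 0.0271). EEF1G (-0.35, adjusted p = 0.0842) and EEF1A1 (-0.28, adjusted p = 0.158) were not called. In DMSO 18 of the 21 were higher in S154D cells in value (median 0.16), with 0 called. Under quantile normalisation 13 of the 21 were positive with CDCA in S154D cells (median 0.02) and 10 between the mutants in DMSO (median -0.01), so neither direction held under that scaling.

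Of 38 tested ribosome biogenesis factors, 6 rose and 3 fell with CDCA in S154D cells, with 10.2% of all genes called, and 23 were positive with a median of 0.13. Those that rose were UTP15 (0.82 ± 0.18) and WDR43 (0.46), which work early on the rRNA of the small subunit, GNL3, also called nucleostemin (0.61), RRN3, which recruits RNA polymerase I (0.55), GNL2, which assembles the large subunit (0.47), and NOB1, which trims the rRNA of the small subunit (0.47). Those that fell were POLR1A, the largest subunit of RNA polymerase I (-0.81 ± 0.16), NAT10, which acetylates rRNA (-0.50), and PES1, which assembles the large subunit (-0.50). Of 29 genes of nutrient and mTOR control 13 were positive (median -0.11), 1 rose and 2 fell: SESN1, an inhibitor of mTOR signalling (0.40), GBL, a subunit of both mTOR complexes (-0.68), and AKT1, a kinase upstream of mTOR (-1.19). Without array 3 of S154D_CDCA, or array 1 or 3 of S154D_DMSO, 0 genes of any of these 3 lists were called in S154D cells, and the same held with slide as a block, where 0 of all tested genes were called by limma. In S154A cells, between the mutants and for the difference between the responses, 0 genes of these 3 lists were called by limma. The cell markers called with CDCA in S154D cells were TACSTD1, an epithelial adhesion protein (0.51), and COL1A1, a collagen chain (-0.56), and their part in these results was not tested.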

How the data were processed

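Gene expression in 12 COS-1 RNA samples was measured as Cy3 intensity. The deposited scanner files hold, per the file headers, intensities that Agilent Feature Extraction 9.5.3.1 had background-subtracted within the array, while the submitters' processing notes name version 12. The deposited series table holds the same intensities, unscaled between arrays. Flags per spot (other values of 0 or 1) are those of the authors' scanner software. Outlier spots were removed, log2 was taken, and the 75th percentile of non-control spots was subtracted. A probe was kept if some group had it well above background on each of its 3 arrays, and the brightest stood for a gene. The same probe was brightest under both scalings for all 82 genes. Means per group were fitted with limma 3.58.1 (R 4.3.3) on all 12 arrays, two-sided, with Benjamini-Hochberg adjustment over 20355 genes. The fit was also run on simulated data with errors independent between genes. That run therefore says nothing about shifts that genes of an array share. For RPL35 the missing value left 2 arrays in S154A_DMSO.

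Precision is limited by having 3 arrays in each group. The 75th percentile of the processed signal ran from 1235 to 2105. Members and lists were chosen with earlier results of these data known, and the processing follows an earlier analysis of them. Named were, in each comparison, the 5 largest and 5 smallest changes, every called gene, the genes named after a relative, RPL35, RPLP0, RPLP1, RPLP2, RPS6 and RPS14, and up to 3 genes of each further list by size of change, with every called one. Some genes and a probe that the rule would name are not reported here. Replicate numbers were not taken to pair arrays: deviations of same-numbered arrays correlated at -0.35 to 0.51. Of these pairs 9 of 18 were over 0.1, against 15 of 36 pairs with different numbers. Of pairs on the same slide 9 of 12 were over 0.1, against 15 of 42 on different slides, and slide entered as an alternative. Alternatives were quantile normalisation, normexp, no scaling, other filters, the mean over probes, blocks, slides, G and C correction, and arrays left out. Cyclic loess and leaving out slides 1 and 3 were added after seeing the data.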

Additional observations from a re-analysis of the deposited data

How the results depend on the processing

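The count of ribosomal protein genes called with CDCA in S154D cells, 2 as reported, was 0 with correction for G and C, without a filter, with only the arrays compared, on the unscaled series table, with slide as a block and without slide 1, 2 or 3. It was 1 with the mean over probes, with normexp and without slide 4, and 6 with cyclic loess, where RPLP2, RPS14 and RPS20 were among those that joined RPS12 and RPS2. Leaving out 1 array gave 0 to 2. Over all genes the count, 2073 as reported, was 0 with correction for G and C, without a filter, with only the arrays compared, with either block and without slide 3, 1 on the unscaled table, 3 without slide 1, 50 without slide 2 and 0 to 2123 with 1 array left out. The 9 calls among biogenesis factors, the 3 in nutrient and mTOR control and the 1 among translation factors were 0 with correction for G and C, without a filter, with only the arrays compared, on the unscaled table, with either block and without slide 1, 2 or 3, and at most 9, 7 and 2 in any setting. In the other comparisons the calls over all genes ran from 0 to 44 for CDCA in S154A cells (27 reported), 0 to 283 between the mutants in CDCA (82), 0 to 1 in DMSO (0) and 0 to 118 for the difference (30). With the replicate number as a block, 0 of the 82 genes were called with CDCA in S154D cells (RPS12 limma adjusted p = 0.053, RPS2 0.0806). In another group 6 of 12 arrays matched their own number best, which does not show that the numbers pair arrays. For the difference between the responses the count was 1, in place of 0, with cyclic loess, quantile normalisation and the filter on all 12 arrays, each time RPS12. Over 29 settings the RPS12 change with CDCA in S154D cells ran from 0.60 to 1.14 (limma adjusted p from 0.0189 to 0.364, called in 17). That of RPS2 ran from -0.63 to 0.00 (adjusted p from 0.0312 to 1, called in 7), where 0.00 and 1 are the values fixed by quantile normalisation. Fits without an S154A array are among these settings and leave both changes as they were.

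The median change of the 82 genes with CDCA in S154D cells, -0.08, was 0.07 with quantile normalisation and 0.10 on the unscaled table. Between the mutants in DMSO, 0.14, it was -0.02 and -0.11 in the same settings. For the difference between the responses, -0.06, it was 0.22 on the unscaled table, -0.24 without slide 2 and 0.08 without slide 4. In CDCA the median between the mutants, 0.06, was -0.06 with cyclic loess and without slide 2. Leaving out 1 array gave -0.10 to 0.05 for CDCA in S154A cells, -0.17 to 0.01 in S154D cells, 0.00 to 0.14 between the mutants in CDCA, 0.06 to 0.22 in DMSO and -0.15 to 0.02 for the difference. Of 4231 values of named genes under other settings 299 changed sign, but none of the 58 in the comparison in which their gene was called. Some of the 58 could not: fits without an S154A array leave that change as it was, and the RPS2 value under quantile normalisation is fixed at 0. Why the settings differ was not tested beyond the values given. The used probes of all genes but RPL35, which lacked 1 array as an outlier spot, were well above background on all 12 arrays. Signal over background therefore set no bound on the values of the used probes. Some other kept probes were dimmer, such as a RPS26 probe well above background on 5 arrays and a RPS2 probe on 10.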
